A study of Mus musculus with 8 samples.

Results

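The genes described here are those of the mitochondrial ribosomal proteins, the 78 genes of the 22013 in the deposited table whose symbol is Mrpl or Mrps followed by a digit, without pseudogenes marked -ps. Of the 22013 genes, 16019 had at least 1 count and 12207 passed the filter on low counts, all 78 of these genes among them. Their expression was measured by sequencing of poly(A)-selected RNA from mouse liver in 8 libraries, 4 of a control group (labelled crtl) and 4 of a resmetirom group (labelled Rem). The series describes a steatohepatitis model in which a diet of fructose, palmitate and cholesterol was fed for 12 weeks. Resmetirom, a thyroid hormone receptor agonist with a preference for the beta receptor, was given intraperitoneally at 5 mg/kg/day for 8 weeks from week 4 on. The stated vehicle was 0.5% carboxymethyl cellulose-sodium with 0.4% Tween-80. For the control libraries the labels state no diet and no vehicle, and they state no strain, age or sex for either group. Whether every library is a separate animal is not stated either, so the p-values cover only the spread from library to library, which may be technical.

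Mitochondria carry their own ribosome, which translates the 13 messenger RNAs of the mitochondrial genome, all of them for subunits of the respiratory chain and ATP synthase. Every protein of this ribosome is encoded in the nucleus, made in the cytosol and imported, whereas its ribosomal RNAs are mitochondrial. Many of its proteins have no counterpart in bacteria, and nuclear respiratory factors and thyroid hormone are known as regulators of mitochondrial gene expression in liver. By protein name, 51 of the 78 genes encode large subunit proteins, 30 with a bacterial counterpart and 21 specific to mitochondria, and 26 encode small subunit proteins, 16 with a bacterial counterpart and 10 specific. The symbol does not always give the subunit: Mrps30 and Mrps18a encode large subunit proteins. The protein of Mrps36 is now known as a subunit of the 2-oxoglutarate dehydrogenase complex rather than of the ribosome, and the gene was kept because the rule takes it.

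The 78 genes lie on 17 chromosomes (GENCODE M21, GRCm38), with 11 of them on chromosome 11, and 33 have a protein-coding gene that starts within 1000 bases on the other strand. Promoters of 69 of the 78 genes were found in RefSeq's promoter sequences (build GRCm38.p6, 250 bases before to 50 after each start), as 75 promoters among 32817 in all. The letters CCGGAAG, which ETS factors such as GABPA bind, occurred on either strand in 34.7% of the 75 promoters and in 8.86% of all 32817. The NRF1 letters GCATGCGC occurred in 10.7% against 2.71%, and the YY1 letters ATGGCGG in 17.3% against 4.05%. At least one of these motifs was found in 49.3% of the promoters of these genes, belonging to 37 genes, and in 14.1% of all. The median GC content was 58.7% against 52.7%. The nuclear receptor half-site AGGTCA occurred in 14.7% of the 75 promoters and 16.3% of all. A pair of such half-sites in the same direction with a gap of 4 bases, the arrangement that thyroid hormone receptors favour, was found in 0 of the 75 promoters and in 0.0152% of all. These matches describe letters in a window and were not tied to any change in level.

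The bases before the start are shown for 4 genes, of which 3 hold whole motif letters in the window and 1 does not. They were picked after their values were seen, among genes with few exonic bases in the window. The shown windows hold at most 12 exonic bases. Mrpl33 and Mrpl52 were among the 4 with the highest log2 fold changes, Mrpl58 encodes the peptidyl-tRNA hydrolase built into the large subunit, and Mrpl45 had the lowest log2 fold change. Capitals mark whole motif letters on either strand, and a position gives the first base of the letters, counted back from -1 just before the start. Only the exact letters given above were searched, and other forms of these motifs were not looked for. For Mrpl45 the label means that none of these letters was found. ETS letters reaching past the start, not shown here, were also found for Mrpl33, Mrpl52 and Mrpl58. For Mrpl33 RefSeq's start lies inside the GENCODE gene, which begins at 31596935.
Mrpl33 (chr5:31613701-31613950, plus strand, letters of NRF1 at base -12): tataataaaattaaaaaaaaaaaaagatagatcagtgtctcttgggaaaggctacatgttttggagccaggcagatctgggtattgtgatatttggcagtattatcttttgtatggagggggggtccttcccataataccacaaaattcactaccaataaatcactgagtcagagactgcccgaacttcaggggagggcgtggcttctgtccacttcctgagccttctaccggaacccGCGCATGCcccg
Mrpl52 (chr14:54426659-54426908, plus strand, letters of the ETS motif at base -47): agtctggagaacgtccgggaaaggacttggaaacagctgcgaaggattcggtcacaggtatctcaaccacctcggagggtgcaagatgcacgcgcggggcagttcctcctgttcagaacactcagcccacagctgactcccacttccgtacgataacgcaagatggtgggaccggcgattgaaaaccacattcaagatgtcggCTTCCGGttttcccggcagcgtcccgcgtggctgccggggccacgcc
Mrpl58 (chr11:115403502-115403751, plus strand, letters of the ETS motif at base -17): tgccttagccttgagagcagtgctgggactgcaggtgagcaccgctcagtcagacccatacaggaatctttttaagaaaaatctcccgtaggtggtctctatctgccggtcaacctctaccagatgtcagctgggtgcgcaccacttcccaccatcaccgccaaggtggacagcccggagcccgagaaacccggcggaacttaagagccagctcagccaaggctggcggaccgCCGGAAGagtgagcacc
Mrpl45 (chr11:97315466-97315715, plus strand, none of the 3 motifs): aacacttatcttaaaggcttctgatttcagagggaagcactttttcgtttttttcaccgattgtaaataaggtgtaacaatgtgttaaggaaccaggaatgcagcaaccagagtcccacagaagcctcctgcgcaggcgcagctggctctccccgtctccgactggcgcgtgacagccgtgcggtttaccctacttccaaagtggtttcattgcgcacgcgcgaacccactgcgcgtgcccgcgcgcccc

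On the TMM scale, which sets libraries to each other by the bulk of their genes, the levels of these genes differed little between resmetirom and control livers. With edgeR's quasi-likelihood test, TMM scaling and Benjamini-Hochberg adjustment over all 12207 genes, Mrpl15 rose and no other of the 78 genes passed an adjusted p of 0.05. That is 1.28% of the 78 genes called higher, beside 2.60% of all genes tested, and 0 called lower, beside 1.99% of all. At an unadjusted p under 0.05, 12 of the 78 were higher (15.4%), beside 9.48% of all genes, and 1 lower (1.28%), beside 8.36%. With DESeq2 3 were called higher (Mrpl15, Mrpl27 and Mrpl33), beside 4.36% of all genes, and with limma-voom 2 (Mrpl15 and Mrpl27), beside 2.70%. Neither tool called any lower.

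The log2 fold changes (resmetirom minus control) of the 78 genes ran from -0.27 for Mrpl45 to 0.40 for Mrpl15, with a median of 0.06, where the median over all genes tested was 0.00. They spread less than those of all genes, with an SD of 0.155 against 0.608. Their levels were also higher, with a median TPM of 33.9 against 7.55, and their median SE was lower, 0.118 against 0.171. No comparison with genes of like level was made, for this spread or for the intervals below. Of the 78 genes, 49 had a log2 fold change above 0 and 29 below. The 95% interval of the fold change lay wholly within 1.5-fold in either direction for 73 of the 78 genes and for 49.7% of all genes tested. The 5 exceptions were Mrpl15, Mrpl27, Mrpl34, Mrpl52 and Mrps26, each of which reached past 1.5-fold on the upper side. An interval wholly within 1.2-fold was found for 5 genes, so smaller differences were mostly not bounded by 4 libraries a group.

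**Figure D1:**
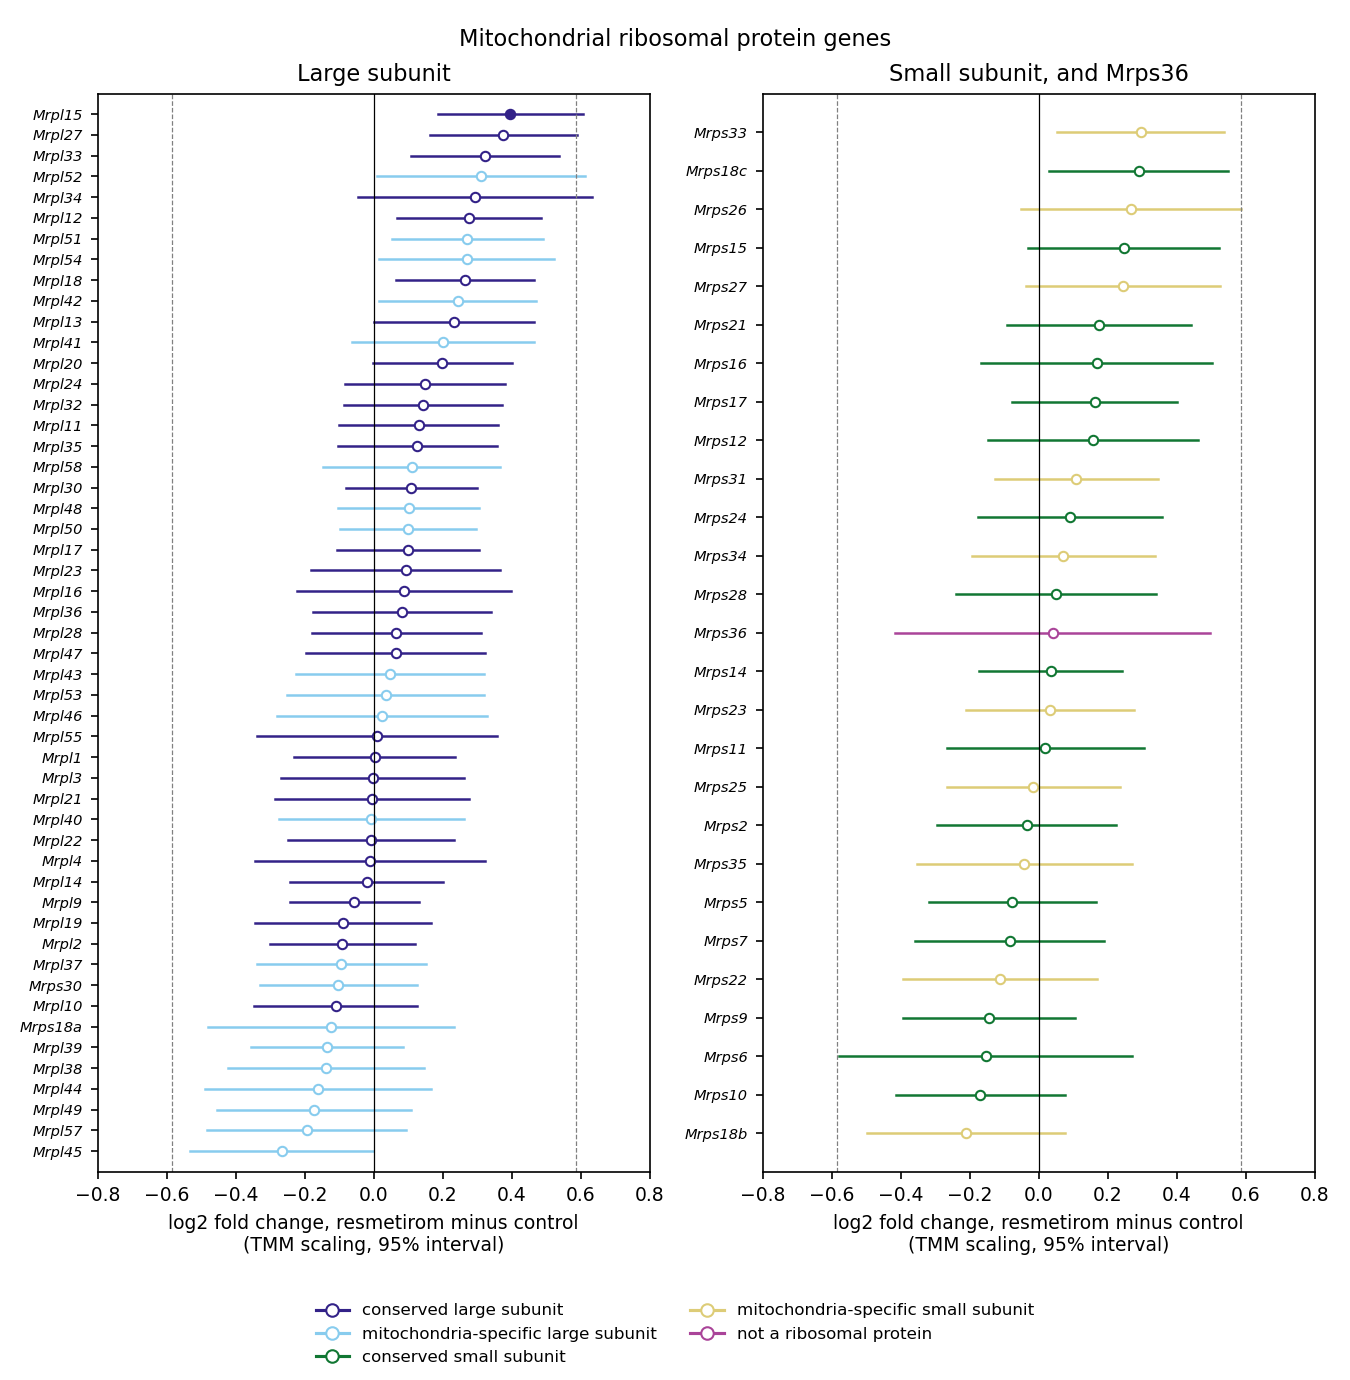
Log2 fold change (x axis, resmetirom minus control, TMM scaling) of each of the 78 genes (y axis, one row a gene) with its 95% interval, coloured by class of protein; the dashed lines mark 1.5-fold and the filled point marks the gene that passed the threshold. Points lie between -0.27 and 0.40, and 73 intervals stay between the dashed lines.

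The direction of the median depended on how the libraries were scaled, and the groups differed in how their counts were spread over genes. The 78 genes took 0.231%, 0.218%, 0.220% and 0.217% of the counts in control replicates 1 to 4, and 0.218%, 0.175%, 0.170% and 0.195% in resmetirom replicates 1 to 4. Resmetirom replicate 1 lay among the control libraries and the other 3 lay below them. The major urinary proteins, abundant carriers secreted by hepatocytes and encoded by the Mup genes, took 7.05%, 5.77%, 4.32% and 5.33% of control counts and 7.54%, 20.1%, 25.1% and 17.8% of resmetirom counts. So the 3 resmetirom libraries with low shares of the 78 genes were those with Mup shares of 17.8% and more. With the Mup genes taken out of the total, the share of the 78 genes was 0.229% to 0.249% in controls and 0.219% to 0.237% in resmetirom libraries, and the groups overlapped. On the TMM scale their summed level was 2140, 2019, 1930 and 1871 CPM (counts relative to the scaled library size) in controls and 2068, 2020, 2109 and 2217 CPM with resmetirom, again overlapping.

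The TMM factors were 1.08 to 1.16 in controls and 0.804 to 1.06 with resmetirom, and did not overlap (2-sided exact permutation p = 0.0286, the smallest that 4 against 4 libraries can give). The Mup share and the share of the 20 most abundant genes were set against the groups after they had been seen, with the same p of 0.0286, and the adjusted p over 4 library measures was 0.0381 for each of the 3. With library sizes alone in place of TMM factors, 12 of the 78 genes were called lower (15.4%), beside 16.1% of all genes, and 0 higher, also at an unadjusted p under 0.05 (edgeR). Their median log2 fold change was then -0.25 and that of all genes -0.31. The difference of both medians was 0.06 under either scaling, which follows because a change of factors shifts nearly all genes alike. With a library left out under TMM it ran from 0.03 to 0.10. The 12 genes were Mrpl2, Mrpl9, Mrpl10, Mrpl37, Mrpl38, Mrpl39, Mrpl45, Mrpl49, Mrps10, Mrps18b, Mrps22 and Mrps30, with Mrpl45 lowest at -0.58. With the Mup genes taken out of the table and no factors, an alternative added after the data were seen, edgeR called 0 of the 78 in either direction, with 3 higher and 6 lower at an unadjusted p under 0.05. The median was then -0.05 and that of all genes -0.12.

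**Figure D2:**
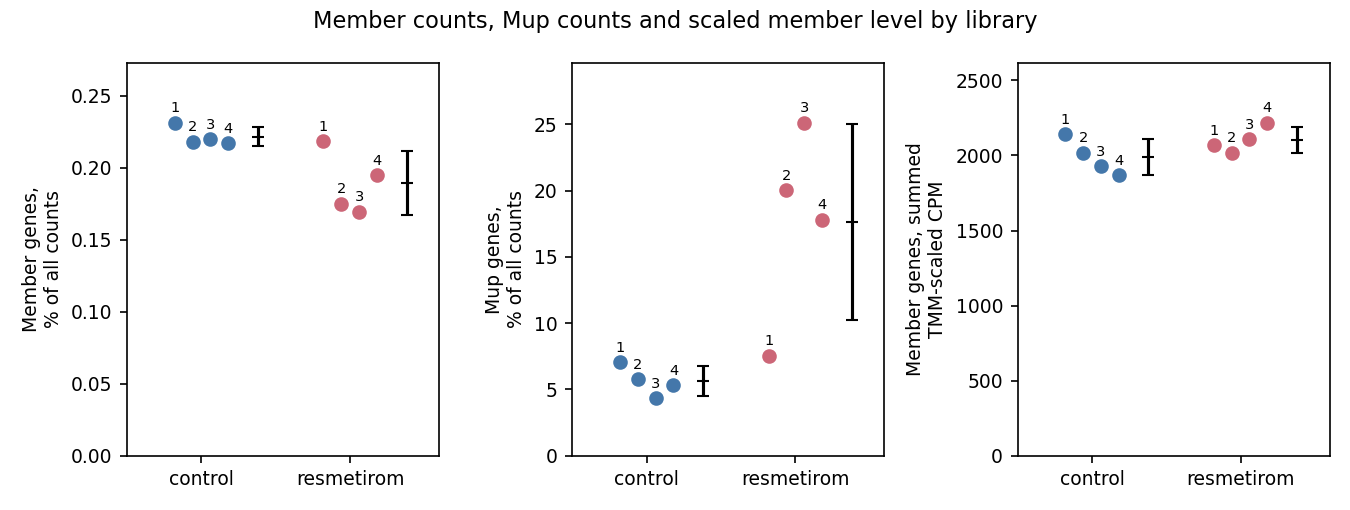
Share of the 78 genes in all counts (left, % of counts), share of the Mup genes (middle, % of counts) and summed TMM-scaled level of the 78 genes (right, CPM) in each library; points are libraries with their replicate number, and bars show the mean with the SD of 4 libraries. Resmetirom replicates 2 to 4 have Mup shares of 17.8% to 25.1% and the lowest shares of the 78 genes, while the summed scaled levels of the groups overlap.

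Among the large subunit proteins with a bacterial counterpart, the median log2 fold change was 0.09, and 21 of 30 genes were above 0. Mrpl15, the counterpart of bacterial L15 (ENSMUSG00000033845, chromosome 1, 4773206 to 4785739, minus strand, none of whose exons overlaps another annotated gene), stood at 56.3, 56.2, 48.3 and 48.6 CPM in controls. In resmetirom libraries it stood at 63.4, 72.9, 65.7 and 73.5 CPM, so all 4 lay above every control. Its log2 fold change was 0.40 (SE 0.10, 95% interval 0.19 to 0.61), with an adjusted p of 0.0374 from edgeR. This call is a narrow one: the adjusted p was 0.0539, 0.115 and 0.138 without control replicate 2, 3 or 4, and 0.0948 and 0.122 without resmetirom replicate 2 or 4. With library sizes alone the log2 fold change was 0.09 (adjusted p = 0.577, edgeR).

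Mrpl27, the counterpart of bacterial L27, a protein close to the peptidyl transferase centre, stood at 22.4, 25.3, 21.1 and 22.7 CPM in controls and 28.7, 28.9, 31.4 and 29.6 CPM with resmetirom. The groups did not overlap, and the log2 fold change of 0.38 (SE 0.10) had an adjusted p of 0.0504 from edgeR, just past the threshold. Exons of Mrpl27 overlap those of Eme1 on the other strand over 75 bases, and the sources used here do not say how strand was handled in counting. Mrpl33, the counterpart of bacterial L33, stood at 20.9, 21.1, 21.4 and 19.9 CPM in controls and 24.9, 25.3, 25.0 and 28.9 CPM with resmetirom. Its groups did not overlap either, with a log2 fold change of 0.32 (SE 0.10) and an adjusted p of 0.0935 from edgeR. Both genes lay in the same direction as Mrpl15 without passing the test.

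The stalk of the large subunit recruits the translation factors, and its base and tip are built from the proteins of Mrpl10, Mrpl11 and Mrpl12, with those of Mrpl53 and Mrpl54 beside them. Mrpl12, which encodes the L7/L12 protein and is also known to bind the mitochondrial RNA polymerase, had the highest count of the 78 genes in any library, 1844 in control replicate 3. It stood at 82.7, 79.2, 83.8 and 68.4 CPM in controls and at 100.5, 93.3, 85.8 and 100.8 CPM with resmetirom, without overlap, and had a log2 fold change of 0.28 with an adjusted p of 0.141 from edgeR. Mrpl11 had a log2 fold change of 0.13 (adjusted p = 0.600, edgeR), and Mrpl10, which anchors the L7/L12 copies, one of -0.11 (adjusted p = 0.680, edgeR). The median over the 5 stalk genes was 0.13, and 0 of 5 were called by edgeR, DESeq2 or limma-voom, with 2 higher at an unadjusted p under 0.05.

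The opening through which new proteins leave is ringed in part by the products of Mrpl22, Mrpl23, Mrpl24, Mrpl47, Mrpl44 and Mrpl45. Mrpl45, which is specific to mitochondria and holds the ribosome to the inner membrane, stood at 29.7, 25.8, 29.9 and 23.2 CPM in controls and 19.95, 24.6, 24.7 and 21.01 CPM with resmetirom. The groups overlapped, since control replicate 4 lay below resmetirom replicates 2 and 3. Its log2 fold change of -0.27 (SE 0.12) was the lowest of the 78, with an adjusted p of 0.276 from edgeR, and it was the 1 gene lower at an unadjusted p under 0.05. The median over the 6 exit genes was 0.03, and over 7 genes of the central protuberance, the crest that faces the small subunit, it was 0.02. Of the exit genes 0 were called by edgeR, DESeq2 or limma-voom. Of the protuberance genes edgeR called 0, with 2 higher at an unadjusted p under 0.05, and DESeq2 and limma-voom each called 1, Mrpl27.

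Among the 21 mitochondria-specific large subunit genes the median log2 fold change was 0.02. Mrpl52 had the highest, 0.31 (adjusted p = 0.260, edgeR), with 10.8, 9.14, 11.6 and 8.70 CPM in controls and 12.5, 11.5, 12.9 and 13.1 CPM with resmetirom, where the lowest resmetirom library lay below control replicate 3. Mrpl57 had -0.19 and Mrpl49 -0.17, with adjusted p of 0.519 and 0.566 from edgeR. For Mrpl58, the hydrolase that can free stalled ribosomes of their peptide, it was 0.11, with 16.4, 20.4, 19.6 and 16.7 CPM in controls and 17.8, 19.2, 21.2 and 20.7 CPM with resmetirom, which overlapped. Mrps30 and Mrps18a, the large subunit proteins named as small ones, had -0.10 and -0.12, with adjusted p of 0.691 and 0.773 from edgeR.

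Among the small subunit genes 0 of 26 were called by edgeR, DESeq2 or limma-voom in either direction, and 2 were higher and 0 lower at an unadjusted p under 0.05. The median log2 fold change was 0.04, with 0.04 for the 16 with a bacterial counterpart and 0.05 for the 10 specific ones. Mrps12, whose protein lines the decoding centre, had 0.16 (adjusted p = 0.639, edgeR). Mrps7, of the head of the small subunit, stood at 60.3, 55.1, 40.5 and 46.4 CPM in controls and 47.9, 44.5, 52.6 and 45.9 CPM with resmetirom, so the control libraries spread over a range that held all resmetirom values. Mrps28, which encodes the counterpart of bacterial S1, had 0.05 with adjusted p = 0.903 from edgeR.

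The 3 mouse genes related to bacterial S18 sit in different places of the mitochondrial ribosome, since only the Mrps18c protein takes the bacterial position. Mrps18c had 24.0, 25.3, 29.7 and 23.5 CPM in controls and 27.0, 29.4, 34.0 and 35.0 CPM with resmetirom (log2 fold change 0.29, adjusted p = 0.221, edgeR), and resmetirom replicates 1 and 2 lay below control replicate 3. Mrps18b, also in the small subunit, had 42.2, 39.1, 29.7 and 32.4 CPM in controls and 32.0, 25.8, 32.6 and 33.4 CPM with resmetirom (log2 fold change -0.21, adjusted p = 0.463, edgeR), again with overlap. Exons of Mrps18b overlap Gm16279 on the other strand over 638 bases. Mrps36, the dehydrogenase subunit, had 8.52, 7.69, 9.27 and 8.504 CPM in controls and 9.92, 6.17, 6.79 and 12.1 CPM with resmetirom. Its log2 fold change was 0.04, and its resmetirom libraries had an SD of 2.76 CPM at a mean of 8.74 CPM, against 0.644 CPM at a mean of 8.497 CPM in controls. GENCODE lists 5 pseudogenes under the names of these genes, of Mrpl23, Mrpl48 and Mrps36, and the sources used here do not say how reads shared with such copies were counted.

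**Figure D3:**
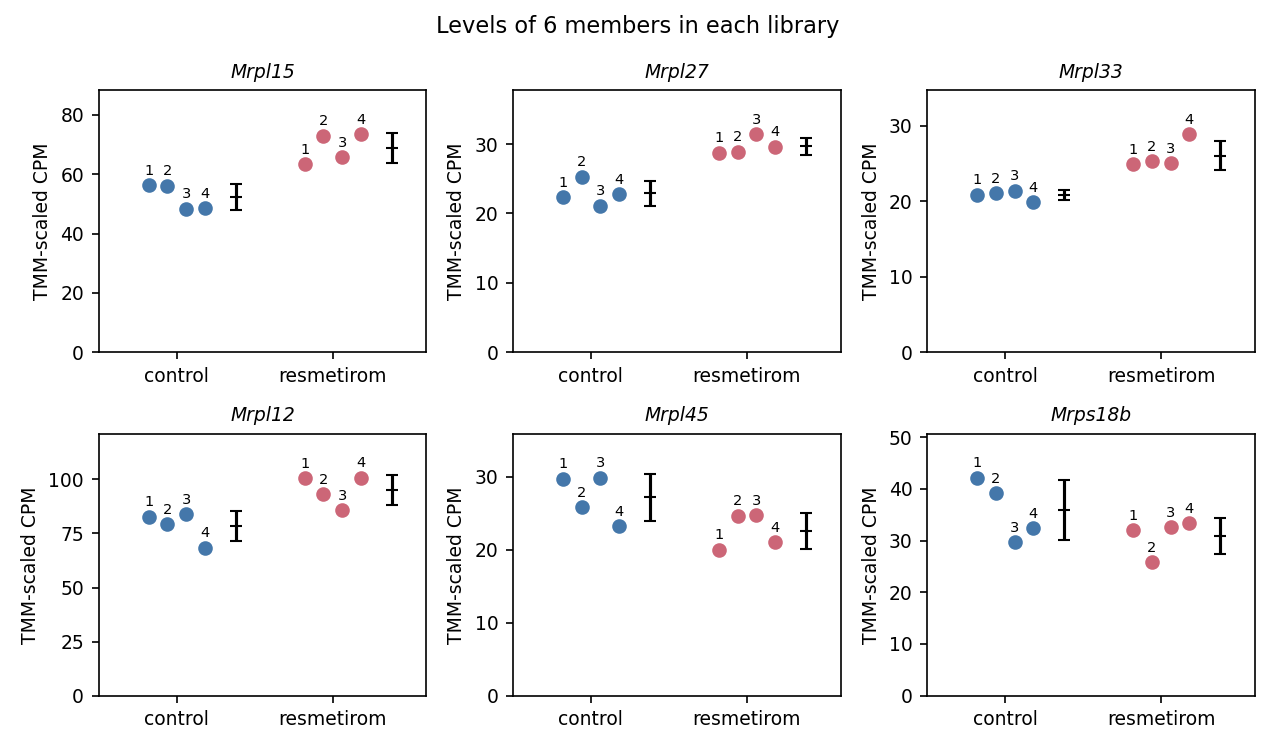
TMM-scaled CPM (y axis, from 0) of 6 of the 78 genes in each control and resmetirom library; points are libraries with their replicate number, and bars show the mean with the SD of 4 libraries. The groups are apart for Mrpl15, Mrpl27, Mrpl33 and Mrpl12 and overlap for Mrpl45 and Mrps18b.

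For 8 of the 78 genes (10.3%) the scaled levels of the groups did not overlap, beside 11.8% of all genes tested. In all 8 the resmetirom libraries were higher: Mrpl12, Mrpl15, Mrpl18, Mrpl27, Mrpl33, Mrpl51, Mrpl54 and Mrps33. The 11.8% takes both directions together, and a share of all genes by direction was not counted, so the direction has no background here. The share of each gene in the summed counts of the 78 needs no scaling between libraries. On that measure the groups did not overlap for 9 genes (11.5%). The same ratio, counts of a gene per summed count of the 78, did not overlap for 11.6% of all genes tested, so the share among the 78 was near the background. Mrpl15 took 2.63% ± 0.12 (SD, n = 4) of the summed counts in controls and 3.28% ± 0.25 (SD, n = 4) with resmetirom. Mrpl27 took 1.15% ± 0.10 and 1.41% ± 0.07, and Mrpl33 1.05% ± 0.06 and 1.24% ± 0.05. Mrpl18 and Mrpl51 were also higher. Mrpl45 took 1.36% ± 0.14 and 1.08% ± 0.14, and Mrpl2, Mrpl19 and Mrpl39 were lower as well. The 5 higher and the 4 lower genes all encode large subunit proteins, as do 51 of the 78.

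Within the groups the 78 genes mostly deviated together. After the group means were taken off, the median Pearson r over the 3003 pairs was 0.236 across the 8 libraries, and 71.8% of pairs were above 0. The r of a gene with the mean of the others had a median of 0.478 and was above 0 for 75 genes, from -0.743 for Mrps9 to 0.946 for Mrpl19. All these values share the same 8 libraries and their scaling factors and are given as a description. They were not computed for other genes, so whether the 78 genes differ from others in this was not tested.

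Levels between genes were compared on TPM, which is per length. The median over the 78 genes of the mean TPM was 33.9, against 7.55 over all genes tested. Mrpl30 was highest with 115.4 TPM, followed by Mrpl12 with 103.9 and Mrpl42 with 100.9, all of the large subunit. The lowest were Mrpl19 with 4.03, Mrps26 with 4.99 and Mrps25 with 5.67 TPM. In controls Mrpl30 had 131.8 TPM ± 2.72 (SD, n = 4), above Mrpl12 with 111.1 ± 8.01 in every library, while Mrpl12 and Mrpl42 with 108.3 ± 7.32 (SD, n = 4) overlapped. Most proteins of this ribosome are present in a single copy, with the L7/L12 protein as the known exception, whereas the RNA levels of their genes were uneven. Annotated exonic length was 5450 bases for Mrpl19, 6576 for Mrps25 and 4358 for Mrps26, against a median of 2394 over the 78 genes.

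On the TPM scale nearly all of these genes were lower with resmetirom. In the authors' deposited table the log2 ratio was below 0 for 77 of the 78 genes, with a median of -0.45, from -0.84 for Mrps5 to 0.04 for Mrpl15. At the authors' adjusted p under 0.05, that deposited table has 38 of the 78 genes lower (48.7%), beside 42.1% of the genes tested here, and 0 higher, beside 1.41%. With limma on log2(TPM + 1), 42 of the 78 were called lower (53.8%), beside 38.1% of all genes. Their median was -0.44 and that of all genes -0.41, so most of the distance from 0 was shared with all genes. The order of the medians turned on log2(TPM + 0.1), with -0.465 for the 78 genes and -0.497 for all genes. Mrpl12 shows the change of scale in single libraries: 111.5, 109.0, 121.6 and 102.2 TPM in controls against 127.8, 88.8, 72.4 and 97.6 TPM with resmetirom, so that resmetirom replicate 1 was the highest of all 8 libraries and the other 3 the lowest.

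**Figure D4:**
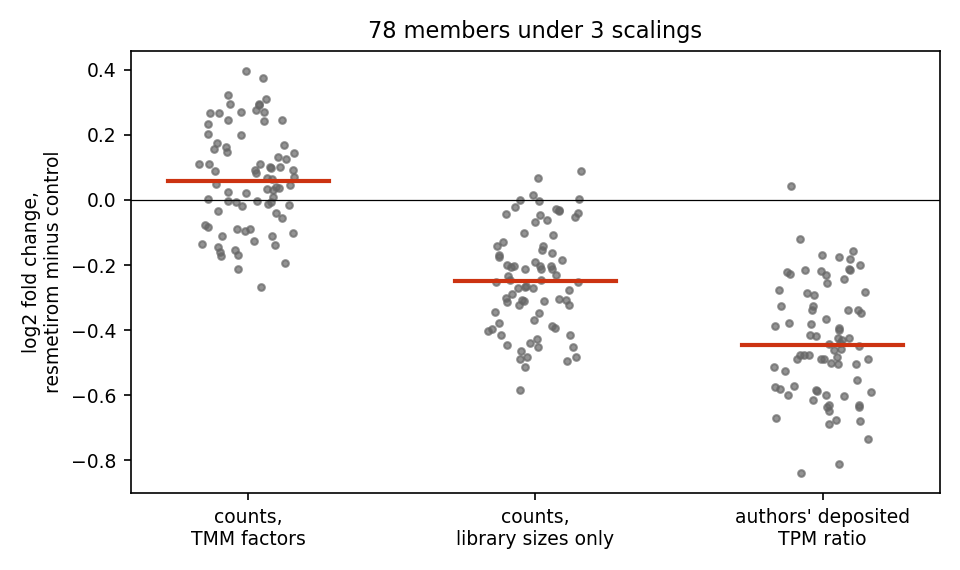
Log2 fold change (y axis, resmetirom minus control) of the 78 genes under TMM factors, under library sizes alone and as the log2 TPM ratio of the authors' deposited table; points are genes, spread sideways at random, and lines are medians. The medians are 0.06, -0.25 and -0.45.

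TPM also depends on the effective length used for each gene and library. The counts per TPM, relative to all genes of a library, gave a relative effective length, and its group means differed by over 0.1 on the log2 scale for 6 of the 78 genes. For Mrps5 it was 0.28 longer with resmetirom (log2 scale), and the gene's log2 fold change was -0.08 by counts and -0.84 in the authors' deposited table. For Mrpl15 it was 0.14 shorter, a log2 difference of -0.14. The single libraries of the groups overlapped for both genes. Relative lengths of Mrps5 ran from 0.8745 to 1.631 in controls and 1.071 to 1.634 with resmetirom. Those of Mrpl15 ran from 0.8515 to 1.173 and from 0.7907 to 1.043. Mrps5 and Mrpl15 are the genes with the lowest and the highest log2 ratio in the authors' deposited table. Longer genes had lower log2 fold changes by counts. Against relative effective length the Spearman rho was -0.353 over the 78 genes and -0.157 over all genes tested, and against exonic length it was -0.148 over the 78 genes and -0.111 over 12187 genes. These values describe relations across genes, which are not replicates. With the trend on exonic length subtracted, the median of the 78 genes was 0.01 and that of all genes 0.00.

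The nuclear genes listed as working with this ribosome did not pass edgeR's test on the TMM scale. Of 5 further proteins of the ribosome with other symbols (Dap3 and Aurkaip1 among them), 14 translation factors, 17 tested of 19 listed mitochondrial aminoacyl-tRNA synthetases, 23 assembly and rRNA modification factors, 18 genes of mitochondrial transcription and RNA processing, and 9 regulators, edgeR called 0 in either direction. At an unadjusted p under 0.05, 1 translation factor was lower and 3 genes of transcription and RNA processing were higher, and none elsewhere. DESeq2 called 1 gene of transcription and RNA processing higher and no other, and limma-voom called 0. The medians of the log2 fold change were 0.15, -0.10, -0.08, 0.05, -0.04 and 0.15 in that order. With library sizes alone 0, 4, 3, 2, 4 and 1 genes of these lists were called lower by edgeR, and on log2(TPM + 1) 2, 10, 9, 10, 10 and 2 by limma, with 0 higher in either. The gene with the smallest p was Aurkaip1 among the further ribosomal proteins (log2 fold change 0.21, adjusted p = 0.333, edgeR) and Gfm2, a factor of ribosome recycling, among the translation factors (-0.27, adjusted p = 0.266). Among the synthetases it was Rars2, for arginine (0.30, adjusted p = 0.293), and among the assembly factors the GTPase Noa1 (-0.32, adjusted p = 0.328). The factor nearest the threshold was Tefm, the elongation factor of mitochondrial transcription, with 9.69 ± 1.62 CPM in controls and 14.2 ± 2.13 CPM with resmetirom (SD, n = 4) and an adjusted p of 0.0815 from edgeR. Tfam, which packages mitochondrial DNA and starts its transcription, had a log2 fold change of 0.06. Of the regulators, Gabpa had a log2 fold change of -0.01, Nrf1 0.30, Yy1 -0.18, Esrra 0.16, Ppargc1a 0.24 and Myc -0.64, with adjusted p of 0.433 to 0.984 from edgeR. Yy1 had -0.51 with library sizes alone, with an adjusted p of 0.00812 from edgeR.

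The messenger RNAs that the ribosome translates were higher with resmetirom on the TMM scale. Of the 13 mitochondrially encoded mRNAs, 9 rose and 0 fell (edgeR), with a median log2 fold change of 0.53. mt-Cytb, for cytochrome b, stood at 6102 ± 506 CPM in controls and 9206 ± 1282 CPM with resmetirom (SD, n = 4; adjusted p = 0.0128, edgeR). mt-Co3, for a cytochrome oxidase subunit, had a log2 fold change of 0.52 (adjusted p = 0.0142, edgeR), and its adjusted p was 0.0614 without control replicate 4. mt-Nd6, for a complex I subunit read from the other strand, had 0.75 (adjusted p = 0.00102, edgeR). The adjusted p of mt-Nd6 with library sizes alone was 0.0311, that of mt-Cytb 0.129 and that of mt-Co3 0.216 (edgeR). With library sizes alone 2 of 13 were called higher with a median of 0.21, and on log2(TPM + 1) 0 were called, with a median of 0.02. The share of these mRNAs in all counts was 7.60% to 9.93% in controls and 8.60% to 10.3% with resmetirom (2-sided exact permutation p = 0.343). Per count of the 78 ribosomal protein genes, which needs no scaling, there were 32.9, 39.4, 45.2 and 42.3 mitochondrial mRNA counts in controls and 44.4, 53.3, 50.7 and 52.7 with resmetirom. Resmetirom replicate 1 lay just below control replicate 3, and the other 3 lay above all controls. Most mitochondrial mRNAs carry short poly(A) tails. How selection on poly(A) bears on these ratios, or on single mRNAs such as mt-Nd6, was not tested. The sources used here do not say how strand was handled in counting, so the reads counted for mt-Nd6 could not be checked for strand.

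In bulk liver fewer cells of a type and less RNA per cell cannot be told apart. Markers of hepatocytes (Alb, Ttr, Apob, Hnf4a and Cps1) were all detected. On the TMM scale they summed to 67640 to 74920 CPM in controls and 83260 to 91120 CPM with resmetirom, without overlap. That separation rests on the TMM factors: the median log2 fold change of the 5 was 0.33 with them and 0.02 with library sizes alone. With TMM factors 1 of 5, Cps1, rose (log2 fold change 0.76, adjusted p = 0.00988, edgeR). Under library sizes alone Cps1 had an adjusted p of 0.0836 from edgeR, 0 hepatocyte markers were called higher and 1 was called lower. Of 6 stellate cell markers 1, Col3a1, fell, by 1.06 on the log2 scale (adjusted p = 0.0474, edgeR), and its adjusted p was 0.0641 to 0.144 when control replicate 1, 3 or 4, or resmetirom replicate 2, 3 or 4, was left out. Summed stellate markers overlapped, at 347.0 to 557.4 CPM and 359.5 to 620.9 CPM. Of the markers of Kupffer cells and macrophages (6), sinusoidal endothelium (5), cholangiocytes (5) and lymphocytes (5 tested of 6) edgeR called 0. At an unadjusted p under 0.05 there were 2 lower endothelial, 1 lower cholangiocyte and 2 higher lymphocyte markers, of which DESeq2 called 1 lymphocyte marker and limma-voom none. With library sizes alone edgeR called 2 endothelial markers lower, Stab2 among them (adjusted p = 0.0194), and 1 cholangiocyte marker, Sox9 (adjusted p = 0.0426). With TMM factors the adjusted p from edgeR was 0.117 for Stab2 (log2 fold change -0.46), 0.188 for Sox9 (-1.38), 0.303 for Marco of the macrophages (1.79) and 0.0897 for Nkg7 of the lymphocytes (2.16). Levels of Nkg7 were low, with means of 0.305 CPM in controls and 1.38 CPM with resmetirom. Sox9 stood at 2.37 ± 1.86 and 0.905 ± 0.104 CPM (SD, n = 4), and its log2 fold change was -0.77 without control replicate 1. Marco stood at 20.5 ± 11.2 and 71.0 ± 57.3 CPM (SD, n = 4). The part of these cell types in the levels of the ribosomal protein genes was not tested.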

How the data were processed

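Poly(A)-selected liver RNA was sequenced on a DNBSEQ-T7 or NovaSeq X Plus, per the labels' protocols. Without giving roles, the submitters' processing notes list the build mm10, HISAT2 2.1.0 and Bowtie2 2.2.8, fastp 0.18.0, RSEM and StringTie 1.3.1, and both edgeR and DESeq2. Whole-number counts per gene and TPM values were deposited for the 8 libraries, per the file headers, with the authors' log2 fold changes, p-values and adjusted p-values, for which no test is named. All columns of per-sample values were matched by name (0 left out). Counts summed to 16787561 to 19887539 per library.

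The counts were fitted with edgeR 4.0.16 in R 4.3.3 (filterByExpr, TMM, robust glmQLFit and glmQLFTest, group as the only term). Single library measures were compared by exact permutation. Alternatives were other scalings and filters, DESeq2 1.42.0, limma 3.58.1 with voom or on log2(TPM + 1 or 0.1), a replicate block and each library left out. The 78 genes, the lists and the alternatives were chosen with earlier results of these data known. Genes named with values were those with an adjusted p under 0.05, the 4 highest and 4 lowest by fold change, the 3 highest and 3 lowest by TPM, a panel by role, and the genes with the smallest p in each other list; other names were added after values were seen. The edgeR procedure was also run on simulated counts, drawn independently for each gene, and no result given here rests on that run. Libraries of a group differed beyond counting error (chi-square per degree of freedom 13.2 to 196).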

Additional observations from a re-analysis of the deposited data

Results flagged for a closer look

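In each of the 24 named genes and 3 summed measures, each group of 4 libraries was searched for 1 library apart from the other 3, and 3 of 54 groups were marked, where chance marks about 1 in 20. Mrpl11 stood at 28 CPM in resmetirom replicate 3 and at 25.0 to 25.3 CPM in the other 3. Mrpl33 stood at 28.9 CPM in resmetirom replicate 4 and at 24.9 to 25.3 CPM in the other 3. Mrps18a stood at 21.4 CPM in control replicate 1 and at 15.3 to 15.9 CPM in the other 3, and its log2 fold change without that library is given among the dependences on processing.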

How the results depend on the processing

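The count of 1 of the 78 genes called higher (Mrpl15) held with median-of-ratios factors, with no filter and without the 20 most abundant genes. It was 2 with upper-quartile factors, with a filter of 1 CPM in 4 libraries, with limma-voom and without robust estimation, and 3 with DESeq2. It was 0 under library sizes alone, on both TPM scales and with the Mup genes taken out (an alternative added after the data were seen), and 0 to 1 when each library was left out. The count called lower was 12 under library sizes alone, 42 on log2(TPM + 1) as on log2(TPM + 0.1), and 0 in every other setting run, where 0 to 1 of the 78 had an unadjusted p under 0.05 except for the 6 with the Mup genes taken out. The median log2 fold change was -0.25 when library sizes alone were used, -0.444 and -0.465 on the TPM scales and -0.0547 without the Mup genes, and 0.03 to 0.10 with a library left out. Against the 317 genes called higher and 243 lower in all, library sizes only gave 151 and 1961, DESeq2 532 and 411, log2(TPM + 1) 123 and 4648, and log2(TPM + 0.1) 122 and 4608. Without the Mup genes 438 were lower, and with a library left out 182 to 313 were higher and 149 to 238 lower.

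Replicate numbers are shared by both groups, but the labels do not say that a number marks a shared source. For that reason the numbers were not taken as pairs. The correlations of same-numbered deviations were -0.325, 0.184, -0.186 and -0.0612. They run across genes, which are not replicates, and cannot decide whether a source was shared. With the replicate block 0 of the 78 genes were called in either direction (9 higher and 0 lower at an unadjusted p under 0.05), and Mrpl15 had an adjusted p of 0.0894 (edgeR).

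Named genes above 0 with TMM whose log2 fold change was below 0 with library sizes only were Mrpl11 -0.18, Mrpl12 -0.022, Mrpl30 -0.19, Mrpl42 -0.053, Mrpl58 -0.20, Mrps12 -0.15, Mrps18c -0.029, Mrps26 -0.043, Mrps28 -0.25 and Mrps36 -0.25. On both TPM scales these were Mrpl12 -0.23, Mrpl27 -0.13, Mrpl30 -0.44, Mrpl33 -0.18, Mrpl42 -0.24, Mrpl52 -0.18 and Mrps18c -0.22. On log2(TPM + 1) and log2(TPM + 0.1) in turn, Mrpl11 had -0.36 and -0.38, Mrpl58 had -0.58 and -0.59, Mrps12 had -0.35 and -0.36, Mrps26 had -0.20 and -0.23, Mrps28 had -0.43 and -0.45 and Mrps36 had -0.50 and -0.53. Without the Mup genes they were Mrpl30 -0.0015, Mrpl58 -0.0033, Mrps28 -0.057 and Mrps36 -0.072. Mrps36 had -0.0066 with limma-voom and -0.0042 with the replicate block. Signs also turned for Mrps18a 0.0021, Mrps25 0.035 and Mrps7 0.012 without control replicate 1, Mrps36 -0.0055 without control replicate 2, Mrps25 0.017 and Mrps28 -0.039 without control replicate 4, Mrps36 -0.027 without resmetirom replicate 1, Mrps25 0.018 without resmetirom replicate 2 and Mrps25 0.018 and Mrps36 -0.15 without resmetirom replicate 4. With each library left out, Mrps28 ranged from -0.039 to 0.11 and Mrps36 from -0.15 to 0.17. No gene in these lists passed the threshold in both directions. The cause of these changes was not tested. The 78 genes had 81 to 1844 counts per library and a median SE of 0.118 on the log2 scale, so differences under 1.2-fold were bounded for 5 genes only.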
